A study of Mus musculus with 4 samples.

Results

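The genes described here encode the heat shock proteins and chaperones of the cytosol and mitochondria. They were chosen by symbol, as 36 named genes of the HSP70, HSP90, HSP40 and HSP110 families, the chaperonins, their co-chaperones and the heat shock factors, and all 36 were found among the 27179 genes of the count table. Their RNA was measured by RNA sequencing in regulatory T cells (Treg cells), the CD4+Foxp3+ T cells that restrain immune responses, of spleen plus peripheral lymph nodes from steady state mice of the C57BL/6 background. The WT group and the P65KO group had 2 libraries each, and the P65KO cells are described as deficient in RelA (p65), a DNA-binding subunit of NF-kB. The sources used here do not give the deleted allele, the promoter of any Cre, the age of the mice or whether animals were pooled.

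Heat shock proteins bind unfolded proteins and help them fold, refold or be degraded. HSP70 proteins bind and release their clients in an ATP cycle that is started by J-domain proteins (HSP40) and reset by nucleotide exchange factors such as the HSP110 and BAG proteins, and clients such as kinases and steroid receptors can then pass to HSP90. The cytosolic chaperonin CCT folds actin and tubulin inside a ring, mitochondria hold their own set, and the heat shock factors switch many of these genes on when proteins unfold. T cells make many of these proteins at rest and more of them when they are activated and grow.

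Few of the heat shock genes passed the test, 15.2% against 20.7% of all genes tested. Of the 36, 33 had enough counts to be tested, and 4 of them rose in P65KO Treg cells, 1 fell and 28 did not pass (quasi-likelihood test of edgeR, with p-values adjusted by Benjamini-Hochberg over all genes tested and a threshold of 0.05). The genes that rose were the HSP40 genes Dnaja1 (1.53-fold) and Dnajb1 (1.38-fold), the HSP110 gene Hsph1 (1.30-fold) and Hspb11 (1.58-fold). The gene that fell was Bag3, a co-chaperone of HSP70, which was 2.10-fold lower. Over all 11172 genes tested, 9.0% rose, 11.7% fell and 20.7% changed in either direction, against 12.1%, 3.03% and 15.2% of the tested heat shock genes. Their median log2 fold change was 0.14, against 0.00 over all genes tested, and 25 of 33 had a positive value. With library totals as the only scaling the split was 1 higher (Dnaja1) and 2 lower (Bag3 and Hsp90ab1).

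**Figure D1:**
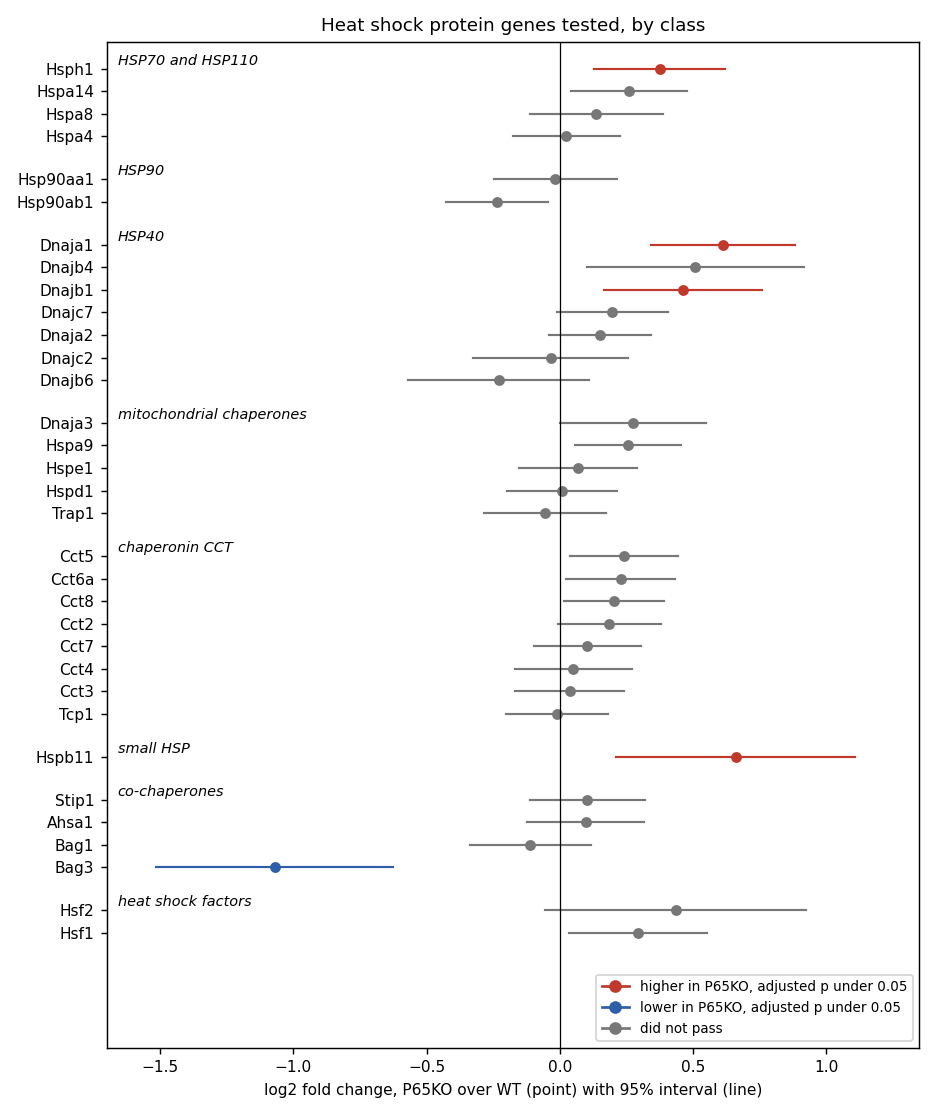
Log2 fold change of the 33 tested heat shock genes, P65KO over WT, in 8 classes. Points are edgeR estimates from 2 libraries a group and lines their 95% intervals, which are not adjusted for the number of genes. Dnaja1, Dnajb1, Hsph1 and Hspb11 (red) passed as higher and Bag3 (blue) as lower, while the 8 chaperonin subunits lie between -0.01 and 0.24.

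The libraries held 4513863 to 4624230 counts with 14025 to 14392 genes detected, so 3 counts correspond to 0.646 to 0.664 CPM, the usual unit of counts relative to the scaled library total. The labels do not say whether replicates came from separate mice, so the spread behind each p-value is that of these 4 libraries and may be technical. The defining T cell genes were abundant in all of them, with Cd3e at 910 and 776 CPM, Cd4 at 1099 and 997 CPM and Foxp3 at 374 and 457 CPM (means of WT and P65KO). Rela itself stood at 182 ± 11.6 and 191 ± 14.5 CPM (SD, n = 2 each), and because whole-gene counts include exons outside a deleted part, they do not check the label. The groups also differed in other ways. Xist, from the X chromosome, had 494 and 608 counts in WT against 0 and 2 in P65KO. The Y-linked Kdm5d, Ddx3y and Eif2s3y were at 0 in WT and at 199 to 432 counts in each P65KO library. Of the 5 sex-linked genes listed, 4 rose and 1 fell. The WT libraries thus show a female pattern and the P65KO libraries a male one. Genotype and sex therefore cannot be told apart in any comparison of the groups given here. Of 13 tested myeloid and dendritic cell markers 9 rose, and the summed level of the 16 listed was 825 and 915 CPM in the WT libraries against 1964 and 1033 CPM in P65KO replicates 1 and 2, none of them at 0 in every library. All 4 tested erythroid markers rose, from sums of 21.3 and 27.8 to 105 and 192 CPM, with Pf4 at 0 throughout. B cell markers summed to 36.9 and 42.0 CPM in WT and 19.4 and 12.4 CPM in P65KO, with Pax5 and Ebf1 at 0 in all libraries, and CD8 and NK cell markers to 70.3 and 85.2 CPM in WT and 91.7 and 78.4 CPM in P65KO. Of the 8 genes of T cell and Treg identity 1 rose, Il2ra (1.34-fold), and 3 fell, among them Ikzf2 (3.14-fold) and Ctla4 (1.89-fold). The part of these cells in the values below was not tested, and in bulk RNA fewer cells of a type and less RNA per cell cannot be told apart.

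Among the J-domain proteins, Dnaja1 and Dnajb1 rose. Dnaja1, a farnesylated HSP40 that works with the cytosolic HSP70 proteins, had 187 and 199 WT counts and 315 and 262 P65KO counts, or 40.6 and 42.8 against 69.5 and 58.0 CPM. Both P65KO libraries lay above both WT libraries, and the log2 fold change was 0.61 (SE 0.12, 95% interval 0.34 to 0.88; edgeR adjusted p = 0.00380). Of its 50-base words, 17.7% also occur in transcripts of other genes, mostly the pseudogene Gm15542, so some of its reads are uncertain. Dnajb1, the main stress-inducible HSP40, stood at 108 and 122 CPM in WT and at 184 and 133 CPM in P65KO. The groups do not overlap, but P65KO replicate 2 lay closer to both WT libraries than to P65KO replicate 1. The log2 fold change was 0.46 (SE 0.14; edgeR adjusted p = 0.0309), and it fell to 0.21 without P65KO replicate 1 (edgeR adjusted p = 0.339).

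The other 5 HSP40 genes did not pass. Dnajb4 was placed near Dnajb1, at 18.7 and 16.6 CPM in WT and 28.7 and 21.5 CPM in P65KO (log2 0.51, SE 0.19; edgeR adjusted p = 0.0750). It passed without P65KO replicate 2 (log2 0.70; edgeR adjusted p = 0.0413). Dnaja2 and Dnajc7, the latter a protein that binds both HSP70 and HSP90, had log2 fold changes of 0.15 and 0.20. Dnajb6, a suppressor of protein aggregation, had -0.23, with 25.8 and 30.1 CPM in WT and 24.5 and 23.3 CPM in P65KO. Dnajc2, which acts at the ribosome, had -0.03. For 6 of the 7 HSP40 genes, and for 24 of all 33 tested heat shock genes, P65KO replicate 1 was above P65KO replicate 2, against 5605 of all 11172 genes. P65KO replicate 1 also had the higher myeloid sum of the pair, and the part of this in the result was not tested.

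Hsph1 was the member of the HSP70 and HSP110 class that rose. It encodes an HSP110 protein that exchanges nucleotide on HSP70 and takes part in dissolving aggregates. Its level was 63.2 and 57.5 CPM in WT and 83.6 and 72.9 CPM in P65KO, with no overlap and a log2 fold change of 0.38 (SE 0.11; edgeR adjusted p = 0.0334). Hspa8, the constitutive HSP70 of the cytosol, ranged from 374 to 469 CPM in WT and from 435 to 493 CPM in P65KO, so the groups overlapped (log2 0.14, 95% interval -0.11 to 0.39). Hspa4, another HSP110-type exchange factor, stood at 234 ± 17.6 and 238 ± 0.221 CPM (SD, n = 2 each). Hspa14, an HSP70 that acts at the ribosome together with Dnajc2, had 365 and 372 WT counts against 447 and 416 in P65KO, with no overlap and a log2 fold change of 0.26 that did not pass (edgeR adjusted p = 0.0870).

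The stress-inducible HSP70 genes were close to undetected. Hspa1a had 0 counts in both WT libraries against 5 and 4 in P65KO. With the WT group set at 3 counts it was 3.07-fold higher, a value that leaves out the counting error of the P65KO counts. Hspa1b had 2 and 10 WT counts against 16 and 7 in P65KO, a ratio of 1.96 (exact conditional binomial 95% interval 0.936 to 4.32, counting error only). Neither passed the filter on low counts. These are neighbouring, nearly identical genes on chromosome 17: of the 50-base words in Hspa1a transcripts 58.8% also occur in Hspa1b, so reads cannot be split with certainty between them. Summed, they had 12 counts in WT and 32 in P65KO, and as 1 gene they had a log2 fold change of 1.43 that did not pass (SE 0.63; edgeR adjusted p = 0.137). The likeness reaches into their promoters, where 247 of the 250 bases before the annotated start are identical. The last 150 of them are printed to show the stretch that the pair shares, on the minus strand at chr17:34972157-34972306 (Hspa1a) and chr17:34959239-34959388 (Hspa1b). The capitals mark a match to the heat shock element, the motif bound by heat shock factors, here taken as 2 inverted units spelled GAANNTTC or TTCNNGAA. Such a match lies before 14.5% of all genes, and binding was not measured.
Hspa1a: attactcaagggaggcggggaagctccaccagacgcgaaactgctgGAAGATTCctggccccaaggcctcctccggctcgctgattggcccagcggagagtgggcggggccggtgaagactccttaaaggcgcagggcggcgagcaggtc
Hspa1b: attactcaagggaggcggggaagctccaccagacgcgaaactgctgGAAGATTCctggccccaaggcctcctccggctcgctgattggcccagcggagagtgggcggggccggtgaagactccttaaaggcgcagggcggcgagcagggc

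**Figure D2:**
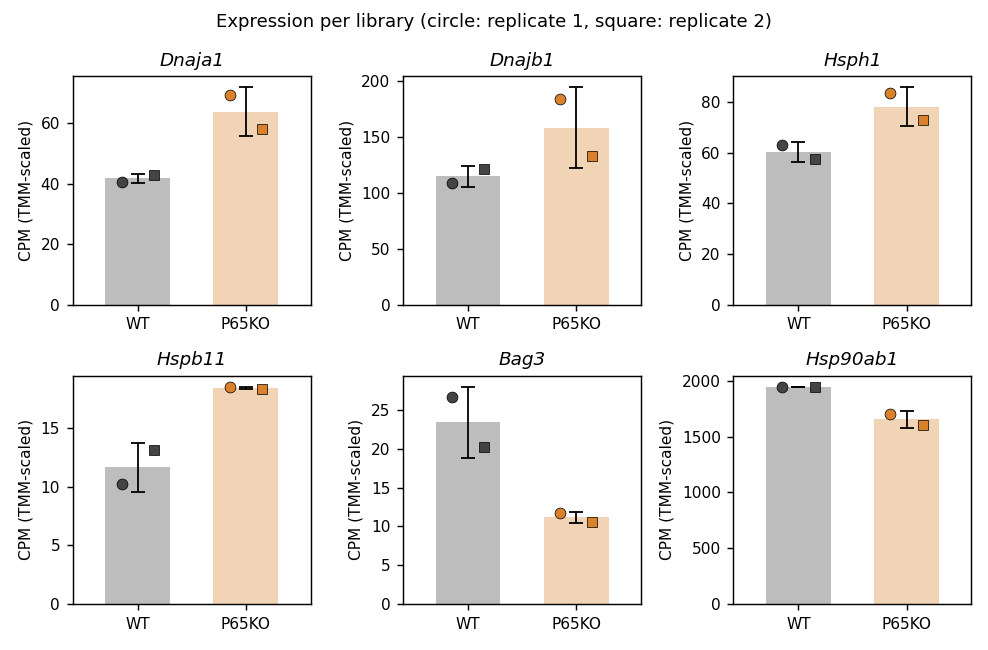
TMM-scaled CPM of the 5 heat shock genes that changed and of Hsp90ab1, the most abundant one, in WT and P65KO Treg cells. Bars are means, error bars the SD of 2 libraries, and circles and squares replicates 1 and 2. All 6 genes have groups that do not overlap, as have 60.5% of all genes tested, and in Dnajb1 the P65KO libraries stand far apart, at 184 and 133 CPM.

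Of the 2 HSP90 genes, 0 were called by edgeR or limma-voom and 1 was called lower by DESeq2. Hsp90ab1, the constitutive cytosolic HSP90, had 8963 and 9048 WT counts against 7729 and 7235 in P65KO, or 1945 and 1947 against 1705 and 1602 CPM. The WT libraries were almost equal and both P65KO libraries were lower, with a log2 fold change of -0.24 (SE 0.09, 95% interval -0.43 to -0.04; edgeR adjusted p = 0.0817). With DESeq2 Hsp90ab1 passed (adjusted p = 0.0322). It also passed with library totals as the only scaling, at a log2 fold change of -0.28 (edgeR adjusted p = 0.0354). It made up 26.5% to 27.7% of the summed heat shock CPM in WT and 22.2% to 22.4% in P65KO. Hsp90aa1, the inducible form, stood at 107 ± 0.342 and 106 ± 12.7 CPM (SD, n = 2 each). Its reads are uncertain, since 50.1% of the 50-base words of Hsp90aa1 occur in other genes, mostly the pseudogene Gm12346. For Hsp90ab1 the share was 4.13%.

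Of the co-chaperones, Bag3 fell. Its protein ties HSP70 to small heat shock proteins and to autophagy of misfolded clients. Bag3 had 123 and 94 WT counts against 53 and 48 in P65KO, or 26.7 and 20.2 against 11.7 and 10.6 CPM. The WT libraries differed by more than the P65KO libraries did, yet both were well above them, and the log2 fold change was -1.07 (SE 0.20, 95% interval -1.51 to -0.62; edgeR adjusted p = 0.00263). None of its 50-base words occurred in another gene. Bag1, an exchange factor of HSP70 that also binds BCL2, had 137 and 163 CPM in WT and 143 and 135 CPM in P65KO. Stip1 (HOP), which hands clients from HSP70 to HSP90, and Ahsa1 (AHA1), which stimulates the HSP90 ATPase, had log2 fold changes of 0.10 each and did not pass.

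Of the small heat shock protein genes, Hspb11 rose and Hspb1 was too low to test. Hspb11 had 47 and 61 WT counts against 84 and 83 in P65KO, which is 10.2 and 13.1 against 18.5 and 18.4 CPM (log2 0.66, SE 0.21; edgeR adjusted p = 0.0392). Despite its name its product, IFT25, is known as a subunit of the intraflagellar transport complex of cilia. Hspb1 (HSP27), an ATP-independent holding chaperone, had 13 and 5 WT counts against 1 and 0 in P65KO, a ratio of WT over P65KO of 17.6 (exact conditional binomial 95% interval 2.78 to 733). It did not pass the filter on low counts, and 48.8% of its 50-base words also occur in the pseudogene Hsp25-ps1.

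The 5 calls differ in how they hold. None changed direction under the 11 other settings. Bag3 kept its call in 9 of 11 and lost it with no filter on low counts and without WT replicate 1 (edgeR adjusted p of 0.0598 and 0.101), and Dnaja1 kept it in 7 of 11. Dnaja1 lost its call with no filter (edgeR adjusted p = 0.0669), without WT replicate 1 (0.101), without WT replicate 2 (0.0742) and without P65KO replicate 1 (0.0537). Dnajb1 kept its call in 5 of 11, and Hsph1 and Hspb11 in 4 of 11 each. These 3 lost it with DESeq2, with library totals as the only scaling and with no filter. They also lost it without either WT library or P65KO replicate 1, and Hsph1 and Hspb11 without P65KO replicate 2 as well. The DESeq2 adjusted p was 0.274 for Hsph1, 0.394 for Hspb11 and 0.0637 for Dnajb1.

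Of the 5 mitochondrial chaperone genes 0 were called by edgeR, DESeq2 or limma-voom, with 2 at an unadjusted edgeR p under 0.05. Such a p is common in these data, as at least the 20.7% of all genes that passed after adjustment have it. Hspa9 (mortalin), the HSP70 that pulls proteins into the matrix, stood at 178 and 165 CPM in WT and 201 and 208 CPM in P65KO (log2 0.26, SE 0.09; edgeR adjusted p = 0.0664). Dnaja3, its J-domain partner, had a log2 fold change of 0.27 (edgeR adjusted p = 0.152). Trap1, the mitochondrial HSP90, had -0.05, with 82.3 to 88.4 CPM in WT and 77.5 to 86.9 CPM in P65KO.

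Hspd1 (HSP60) and Hspe1 (HSP10) form the mitochondrial folding chamber and its lid, and sit head to head on chromosome 1. Hspd1 ranged from 101 to 105 CPM and Hspe1 from 94.2 to 108 CPM over the 4 libraries, and the groups overlapped for both. Their log2 fold changes were 0.01 (95% interval -0.20 to 0.21) and 0.07 (-0.15 to 0.29). The 2 genes share 1 run of matches to the heat shock element at chr1:55088053-55088082. This run lies before the start of Hspe1 and before 1 of the 2 annotated starts of Hspd1. It is printed as read from each gene, on the minus strand for Hspd1 and the plus strand for Hspe1, to show that 1 stretch with 3 overlapping matches (capitals) faces both.
Hspd1: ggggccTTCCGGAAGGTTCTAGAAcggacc
Hspe1: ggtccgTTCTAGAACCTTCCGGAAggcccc

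The chaperonin CCT had no subunit past the test. Of its 8 subunits 0 were called by edgeR, DESeq2 or limma-voom, with 3 higher at an unadjusted edgeR p under 0.05 (Cct5, Cct6a and Cct8). At least 20.7% of all genes tested, in either direction, were also under that unadjusted p. Cct5 had 479 and 542 CPM in WT and 612 and 595 CPM in P65KO (log2 0.24, SE 0.09; edgeR adjusted p = 0.0933). Cct8 had 339 and 333 CPM in WT and 384 and 390 CPM in P65KO (log2 0.20, SE 0.09; edgeR adjusted p = 0.121). Cct6a had a log2 fold change of 0.23, Cct2 of 0.19, Cct7 of 0.10, Cct4 of 0.05 and Cct3 of 0.04. Tcp1, the alpha subunit, had -0.01, with 278 and 297 CPM in WT and 284 and 286 CPM in P65KO. In 5 of the 8 subunits both P65KO libraries lay above both WT libraries, which 29.7% of all genes tested also did. The summed CPM of the complex was 2678 and 2930 in WT and 3107 and 3047 in P65KO.

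The heat shock factor genes did not pass either. Hsf1, the master regulator of the heat shock response, had 41.2 and 38.5 CPM in WT and 49.2 and 48.5 CPM in P65KO (log2 0.29, SE 0.12; edgeR adjusted p = 0.108). Hsf2, which can pair with it, had 9.55 and 10.5 CPM in WT and 12.8 and 14.4 CPM in P65KO (log2 0.43, SE 0.23; edgeR adjusted p = 0.206). The groups do not overlap for either gene, which was also so for 60.5% of all genes tested. DESeq2 and limma-voom called 0 of the 2 as well, and 1, Hsf1, had an unadjusted edgeR p under 0.05, as had at least 20.7% of all genes.

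Over all tested heat shock genes, both P65KO libraries lay above both WT libraries in 18 of 33 and below them in 3, against 29.7% and 30.9% of all genes tested, and the groups overlapped in 12. The summed CPM of all 36 genes was 7016 and 7355 in WT and 7609 and 7217 in P65KO, so the sums overlapped. Without Hsp90ab1 the sum was 5071 and 5408 CPM in WT and 5905 and 5615 CPM in P65KO, and the groups did not overlap. Hsp90ab1 was itself lower in both P65KO libraries, so leaving it out favours a higher P65KO sum. Of all single genes tested, 60.5% also had groups that did not overlap.

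Levels per gene length were compared as RPKM, reads scaled to gene length and library total, from the deposited log2 values. Hsp90ab1 was first in all 4 libraries at 624 to 792 RPKM, and Cct5 second at 276 to 341 RPKM, and neither range touched the next gene. Cct4 (214 to 246 RPKM), Hspa8 (182 to 231) and Cct2 (174 to 198) followed in that order in each library, although the ranges of neighbours overlapped. The CCT subunits, which enter the ring in equal numbers, differed 3.39-fold in mean level, from 92.6 RPKM for Cct6a to 314 RPKM for Cct5. At the low end stood Dnaja1 at 7.17 to 11.8 RPKM, Bag3 at 4.04 to 10.5 RPKM and Hsf2 at 3.76 to 5.40 RPKM. Bag3 was 29th of 36 in both WT libraries and 33rd in both P65KO libraries, while Dnaja1 was 30th and 31st in WT and 29th in both P65KO libraries. For Hspa8, 67.3% of the 50-base words occur in other genes, mostly the pseudogene Gm15459. The share was 50.1% for Hsp90aa1, 39.7% for Hspd1 and 36.1% for Hspe1. The place of these genes in this order is uncertain, and so is that of Hspa1a, Hspa1b and Hspb1, which also share many words.

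**Figure D3:**
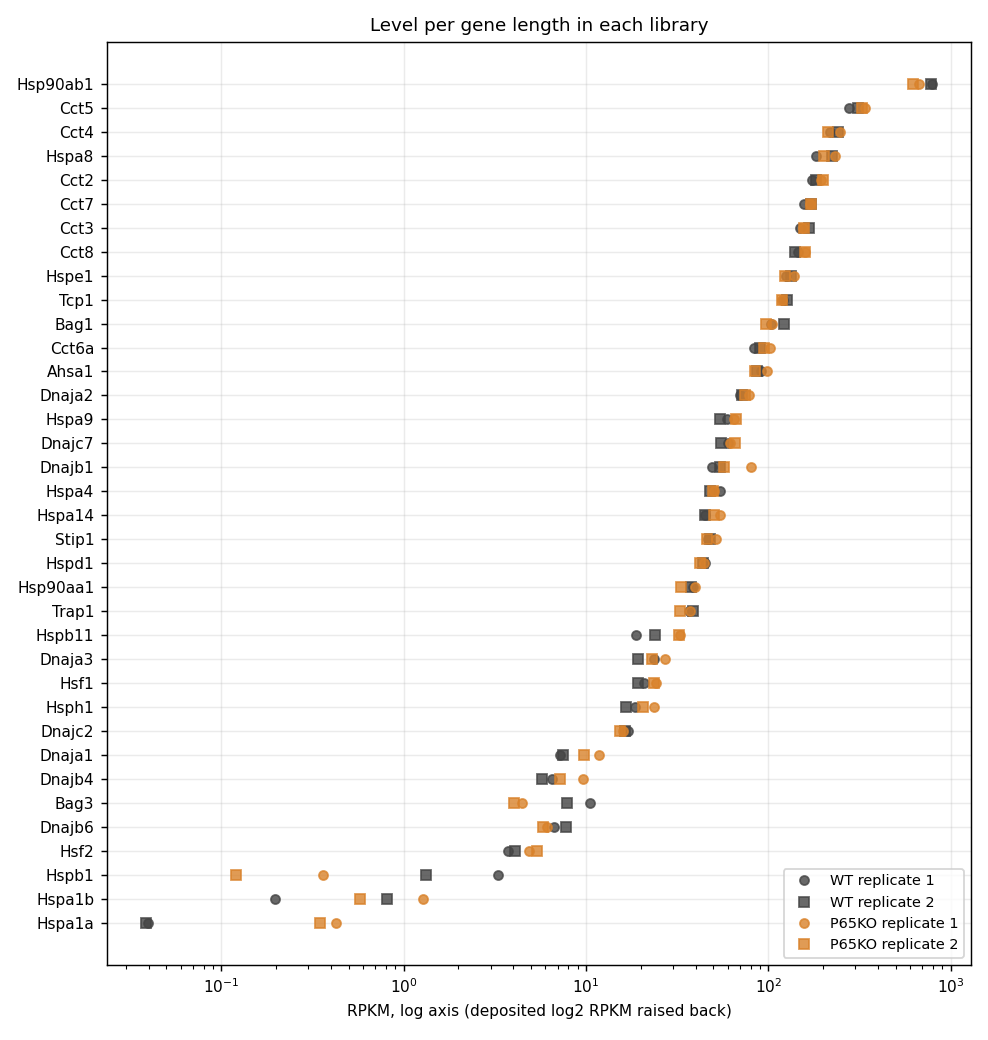
Deposited expression of all 36 heat shock genes per gene length in each of the 4 libraries, on a log axis in RPKM, ordered by mean. The values include the 0.5 counts added by the authors, so Hspa1a in WT marks 0 counts. Hsp90ab1 stands alone at 624 to 792 RPKM and the inducible Hspa1a and Hspa1b reach at most 1.28 RPKM.

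Promoters were at hand for 29 of the 36 genes, from RefSeq on GRCm38.p6. Those of Hsp90ab1, Hsp90aa1, Hspa8, Hspa9, Hsf1, Cct4 and Dnajc2 were missing and were not searched. Of the 29 searched, 11 (37.9%) held the motif GAANNTTC or TTCNNGAA, which read alike on both strands, in the 250 bases before an annotated start. The share was 14.5% of all 27025 genes. The 11 were Cct2, Cct5, Dnaja1, Dnajb4, Dnajb6, Hspa1a, Hspa1b, Hspb1, Hspd1, Hspe1 and Hsph1. The longer run GAANNTTCNNGAA or TTCNNGAANNTTC, which contains the short motif, was in Dnajb6, Hspd1 and Hspe1, or 10.3% against 0.514% of all genes. Hspd1 and Hspe1 hold the same stretch, and the Hspa1a and Hspa1b promoters are nearly identical. Both shares of the heat shock genes therefore count shared sequence more than once. Of the 5 genes that changed, Dnaja1 and Hsph1 held a match and Dnajb1, Hspb11 and Bag3 did not. A match, or the lack of one, describes letters only. The stretches of Dnaja1 and Hsph1, which rose, are printed beside that of Dnajb6, which did not pass, with the matches in capitals. They lie on the plus strand at chr4:40722333-40722362 (Dnaja1) and chr5:29735843-29735872 (Dnajb6), and on the minus strand at chr5:149636351-149636380 (Hsph1).
Dnaja1: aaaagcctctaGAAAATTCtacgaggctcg
Hsph1: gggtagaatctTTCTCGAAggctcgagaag
Dnajb6: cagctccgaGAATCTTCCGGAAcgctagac

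Bag3, which fell, and Dnajb1, which rose, had no match. The 150 bases before an annotated start of each are printed so that they can be set beside the matches above. They lie at chr7:128523433-128523582 (Bag3) and chr8:83608025-83608174 (Dnajb1), both on the plus strand.
Bag3: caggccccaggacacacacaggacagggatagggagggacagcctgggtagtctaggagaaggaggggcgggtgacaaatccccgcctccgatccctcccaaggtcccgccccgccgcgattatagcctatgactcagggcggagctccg
Dnajb1: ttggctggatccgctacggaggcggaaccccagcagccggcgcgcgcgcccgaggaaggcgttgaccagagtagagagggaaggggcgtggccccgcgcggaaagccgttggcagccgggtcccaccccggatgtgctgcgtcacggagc

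Other chaperone genes set these values in context. Of 37 tested further chaperones and co-chaperones of the cytosol, 1 rose and 5 fell by edgeR (2.70% and 13.5%). DESeq2 called 1 and 1, and limma-voom 1 and 4. Over all genes tested 9.0% rose and 11.7% fell by edgeR, and the median log2 fold change of the 37 was -0.005. Bag2, an inhibitor of the ubiquitin ligase CHIP and a relative of Bag3, was 4.65-fold lower at low counts (18 and 21 in WT, 3 and 5 in P65KO), Hspa2 2.76-fold lower and the HSP40 gene Dnaja4 1.99-fold lower, from 24.2 ± 3.52 to 12.2 ± 2.78 CPM (SD, n = 2 each). In prefoldin, which feeds clients to CCT, Pfdn6 rose 1.30-fold, and the other 5 of its 6 subunits did not pass. limma-voom also called 1 subunit higher, and DESeq2 called 0. In mitochondrial protein quality control 1 of 15 genes rose, Dnajc28, from 4 and 7 counts to 23 and 13, by edgeR, and DESeq2 and limma-voom called 0.

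The chaperones of the endoplasmic reticulum had more calls, all lower. Of 23 tested genes 8 (34.8%) fell, against 11.7% of all genes tested, and 15 did not pass. The median log2 fold change was -0.12, and DESeq2 and limma-voom called 5 and 8 lower. The list was chosen with earlier results of these data known. None rose by any of the 3 tools, and 0 had a positive change at an unadjusted edgeR p under 0.05. Hspa5 (BiP), the HSP70 of this compartment, was 1.47-fold lower, with 3396 and 3424 WT counts against 2279 and 2273 in P65KO. Pdia6, a disulfide isomerase, was 1.43-fold lower and Sdf2l1, a partner of BiP, 1.51-fold lower. Whether the endoplasmic reticulum set and the cytosolic and mitochondrial set differ as groups was not tested.

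**Figure D4:**
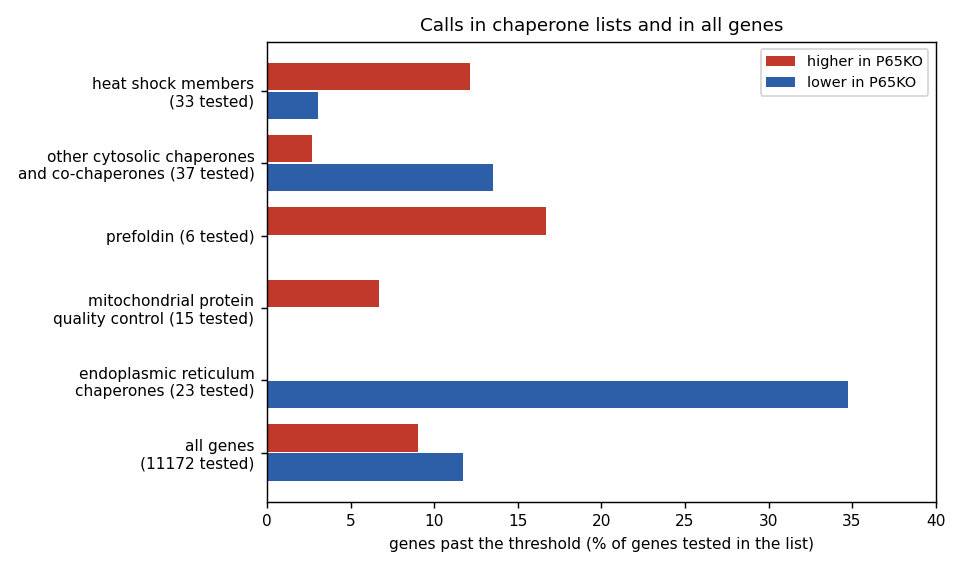
Percent of tested genes that were higher (red) or lower (blue) in P65KO Treg cells, for the heat shock genes, 4 other chaperone lists and all 11172 genes. The heat shock genes show 12.1% higher and 3.03% lower, and the endoplasmic reticulum chaperones 34.8% lower and none higher. All genes tested show 9.0% higher and 11.7% lower.

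Early response genes that handling of cells can induce did not move one way. Of 14 tested, 1 rose and 4 fell (7.14% and 28.6%, against 9.0% and 11.7% of all genes tested), with a median log2 fold change of -0.04. Jun was 3.23-fold higher, with 56 and 47 WT counts against 167 and 159 in P65KO, and Egr2 and Gadd45b were 2.43-fold and 3.01-fold lower. Their part in the heat shock values was not tested.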

How the data were processed

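The deposited files hold raw counts by Entrez gene and the authors' log2 RPKM values for each library. The tools named in the submitters' processing notes are featureCounts, Subread and limma, with GRCm38 (mm10). The sources used here give no version, annotation or strand setting. The deposited log2 RPKM equalled the log2 of the count plus 0.5 per gene length and library total: the computed length was the same in the 4 libraries, within 0.01 bases, for 27179 genes. Counts were tested with edgeR 4.0.16 in R 4.3.3 (filterByExpr, TMM, quasi-likelihood F test, two-sided, Benjamini-Hochberg over 11172 genes, threshold 0.05). CPM values are TMM-scaled, and SE is the log2 fold change over the square root of F. Groups came from the sample titles. The members and lists were chosen with earlier results of these data known. All 36 members are accounted for. The myeloid, erythroid, B cell and CD8 and NK cell markers are given as sums, without the names of their called genes. Of each remaining list the up to 3 called genes with the largest change are named, besides Rela, Foxp3, Hspa5 and Xist. Cd3e and Cd4 were added after their values were seen. The fit was tested on simulated counts. There 53.7% of genes set at a 1.5-fold change were called, 76.1% at 2-fold and 98.4% at 4-fold. A gene that did not pass may therefore still have changed. Other settings were RLE factors, library totals, 2 other filters, DESeq2 1.42.0, limma-voom 3.58.1, a replicate block and leaving out each library. Coordinates and promoters are RefSeq's on GRCm38.p6. Shared 50-base words were counted over GENCODE M21 transcripts, as a measure of which genes may share reads. Intervals on counts cover counting error only, and the floor of 3 counts covers only that of the group at 0.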

Additional observations from a re-analysis of the deposited data

How the results depend on the processing

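The number of genes called, 2310 in the main fit, was 771 with no filter on low counts and 1219 with DESeq2, and between 743 and 1633 when 1 library was left out. The 4 heat shock genes higher in P65KO became 1 with library totals only, 0 with no filter and 1 with DESeq2, and 0 to 3 when 1 library was left out. The 1 lower heat shock gene became 2 with library totals only and with DESeq2 (Hsp90ab1 added), 0 with no filter, and 0 or 1 when 1 library was left out. The cause of these shifts was not tested. RLE factors, the filter at 10 counts and limma-voom gave 4 and 1. The median log2 fold change of the heat shock genes stayed between 0.09 and 0.17.

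The replicate number was added as a replicate block, with 2319 genes called and 4 and 1 heat shock genes. Nothing in the labels says that a number pairs libraries, and the deviations of same-numbered libraries had a correlation of -0.138. With the crossed pairing, chosen after seeing the data, 2973 genes, 9 higher and 2 lower heat shock genes were called.

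Log2 fold changes that changed sign were all of genes that did not pass. With library totals only they were -0.0232 for Hspa4, -0.0397 for Hspd1 and -0.0102 for Cct3. When 1 library was left out, the values ranged from -0.0485 to 0.103 for Hspa4, -0.0159 to 0.311 for Hspa8, -0.140 to 0.0988 for Hsp90aa1 and -0.0213 to 0.0383 for Hspd1. They ranged from -0.00403 to 0.137 for Hspe1, -0.228 to 0.0186 for Bag1, -0.00449 to 0.193 for Ahsa1 and -0.0538 to 0.135 for Cct3. They ranged from -0.0436 to 0.142 for Cct4, -0.0584 to 0.0414 for Tcp1 and -0.135 to 0.0242 for Trap1. With all 4 libraries Hspa1a, Hspa1b and Hspb1 did not pass the filter on low counts, and 34 or 35 heat shock genes in place of 33 were tested when 1 library was left out.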
